A study of Mus musculus with 2 samples.

Results

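Arginine metabolism and alternative activation of macrophages were described here through 10 genes of the tumour infiltrate: Arg1, Nos2, Slc7a2, Il4ra, Retnla, Chil3, Ear2, Mrc1, Folr2 and Cd163. They were chosen by symbol for their roles, and are 10 of the 32285 gene IDs in the files. All 10 had UMIs in monocytes and macrophages of both libraries. The study fed mice with MC38-OVA tumours either a control diet or one containing sitagliptin, which blocks the peptidase DPP4. MC38-OVA cells come from a mouse colon carcinoma and make ovalbumin, a model antigen. Both groups are labelled WT, and from each a tumour cell suspension was enriched for CD45+ cells on magnetic columns (MACS) and made into a droplet 5' library with the SeekOne DD kit. Each diet had 1 library. The sources used here do not give the dose, the length of feeding, the age of the mice or the number of mice per library. No difference between the diets has a replicate check, and every interval covers counting error only.

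In macrophages, opposed enzymes use L-arginine. Arginase 1, made from Arg1, splits it into urea and ornithine, which feeds polyamine and proline synthesis. Inducible nitric oxide synthase, made from Nos2, turns it into nitric oxide and citrulline, and the transporter encoded by Slc7a2 (CAT2) brings it into the cell. IL-4 and IL-13 act through the receptor chain encoded by Il4ra and the transcription factor STAT6, and induce Arg1, Retnla (the secreted protein RELM-alpha), Chil3 (the chitinase-like protein Ym1) and Mrc1 (the mannose receptor CD206) in mouse macrophages. Interferon gamma and bacterial products induce Nos2. Folr2, a folate receptor, and Cd163, a scavenger receptor for haemoglobin, mark resident macrophages of many tissues, and Ear2 encodes a secreted ribonuclease of the eosinophil-associated family.

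The sequence before the start of 4 members is shown because these genes differed in the cells that held them: Ear2 was found more often in cells with Retnla than in others, Chil3 was highest in monocytes, and Mrc1 was highest in resident-like macrophages. Each line is the 250 bases before the start in the RefSeq promoter table (GRCm38.p6), read 5′ to 3′ on the strand of the gene. Capitals mark matches to the STAT6 motif TTCNNNNGAA, the shorter STAT motif TTCNNNGAA, the C/EBP motif TTGCNNAA or the TATA motif TATAAA, each searched on both strands.
Retnla, chr16:48842359-48842608, plus strand: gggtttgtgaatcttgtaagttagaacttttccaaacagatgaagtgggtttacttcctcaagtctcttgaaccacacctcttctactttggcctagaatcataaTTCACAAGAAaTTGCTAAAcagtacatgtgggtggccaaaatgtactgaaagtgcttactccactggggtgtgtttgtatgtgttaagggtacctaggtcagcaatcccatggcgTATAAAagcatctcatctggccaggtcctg
Ear2, chr14:44102404-44102653, plus strand: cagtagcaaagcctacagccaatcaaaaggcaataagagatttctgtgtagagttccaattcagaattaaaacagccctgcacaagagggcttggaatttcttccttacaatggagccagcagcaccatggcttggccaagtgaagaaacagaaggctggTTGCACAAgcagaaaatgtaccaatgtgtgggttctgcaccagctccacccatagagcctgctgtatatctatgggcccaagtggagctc
Chil3, chr3:106167565-106167814, minus strand: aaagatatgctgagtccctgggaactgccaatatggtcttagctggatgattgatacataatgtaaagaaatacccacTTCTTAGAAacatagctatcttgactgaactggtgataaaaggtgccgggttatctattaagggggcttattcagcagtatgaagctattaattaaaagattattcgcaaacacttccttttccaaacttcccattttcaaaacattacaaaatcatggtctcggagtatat
Mrc1, chr2:14229164-14229413, plus strand: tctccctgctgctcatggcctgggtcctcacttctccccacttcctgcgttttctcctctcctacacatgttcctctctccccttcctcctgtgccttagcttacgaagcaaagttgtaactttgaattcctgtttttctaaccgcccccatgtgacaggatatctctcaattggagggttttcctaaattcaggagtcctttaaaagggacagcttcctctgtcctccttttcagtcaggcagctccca
In Retnla the STAT6 match began 145 bases before the start, the C/EBP match 134 bases and the TATA match 30 bases before it. Ear2 held 1 C/EBP match, 90 bases before the start. Chil3 held 1 match to the shorter STAT motif, 172 bases before the start, and none of these letters occurred in the Mrc1 window. Of the 32851 promoters in the table, 5.85% held the STAT6 motif over the same length, 7.02% the shorter STAT motif, 9.56% the C/EBP motif and 12.4% the TATA motif. A match is a description of the letters. The table had entries for 7 of the 10 members. Arg1, Nos2 and Slc7a2 were not among them.

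The libraries held 8694 control and 9766 sitagliptin barcodes, with medians of 5074 and 5158.5 UMIs. Monocytes and macrophages, called from UMIs of 11 phagocyte markers such as Csf1r, C1qa and Adgre1, were 4690 control and 5854 sitagliptin cells, with medians of 3897 and 4581 UMIs. Levels are given as CPM, the UMIs of a gene per 1000000 UMIs of the class. All 11 markers were detected in both libraries, at 13284 and 11420 CPM in sum. The 9 T cell markers summed to 25.6 and 22.5 CPM in this class, and of the 5 eosinophil markers, which bear on Ear2, Prg2 and Epx were at 0 in both libraries. Barcodes that also carried markers of another class, 1083 of 5793 and 1102 of 6975, were left out. Barcodes near the limit of 20 phagocyte marker UMIs per 10000 numbered 175 below and 228 above it for control, and 204 and 236 for sitagliptin. The libraries shared 132 barcode sequences, of which 67 and 85 lay in this class. By program, meaning cells grouped by their highest marker list, 7.16% of control and 10.8% of sitagliptin cells were called monocytes, 4.14% and 7.35% resident-like macrophages, and 17.8% and 11.5% cycling macrophages. The 1232 and 1808 macrophages without a called program had Nedd4, Gzmb and Cald1 as leading genes, which are not macrophage markers, and were given no name.

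**Figure D1:**
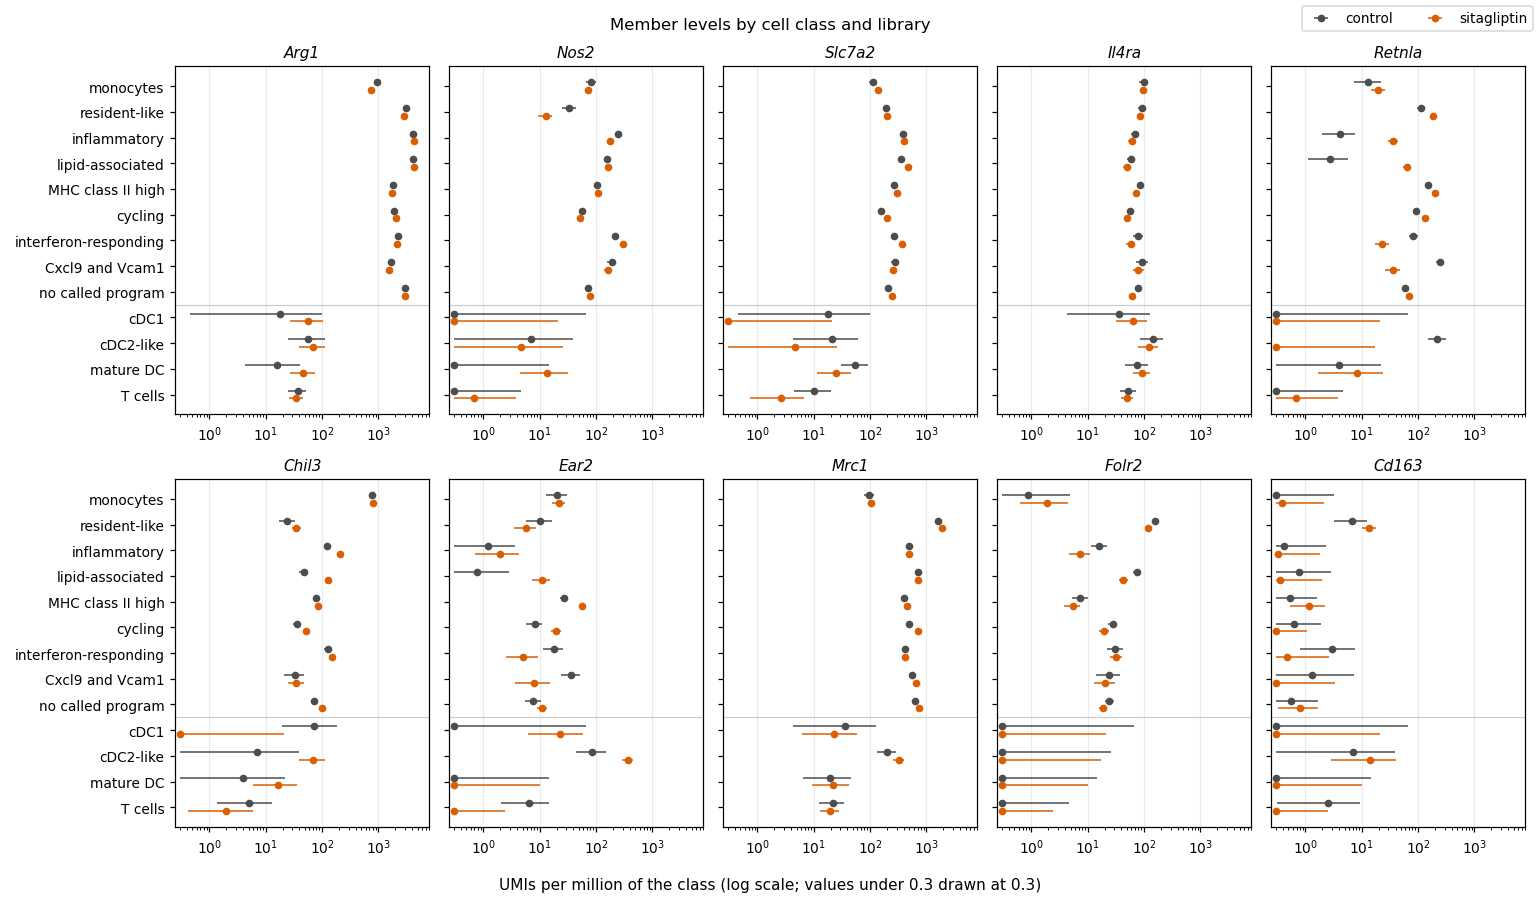
Level of each member in CPM of the class (horizontal log axis, values under 0.3 drawn at 0.3) for monocytes, macrophage programs, dendritic cell subsets and T cells, 1 panel per gene. Points are the control (grey) and sitagliptin (orange) libraries and bars are 95% Poisson intervals. Arg1 was between 760 and 4256 in every phagocyte class and between 15.8 and 69.7 in the dendritic cell subsets, while Chil3 was highest in monocytes and Folr2 in resident-like macrophages.

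Taken over all monocytes and macrophages, Arg1 and Nos2 had similar levels in both libraries, while Retnla, Chil3, Ear2 and Mrc1 were higher in the sitagliptin library and Folr2 and Il4ra lower. By at least 25%, 4 members were higher in the sitagliptin library (Retnla, Chil3, Ear2 and Cd163), and 0 were lower by at least 20%. Of the 11102 genes with at least 100 UMIs, 4.24% were higher and 13.2% lower by these limits, and the median log2 ratio of these genes was −0.09. The list was chosen with earlier results known. The members past the limits differed with depth: with each cell thinned to 2000 UMIs, Cd163 fell under 100 UMIs, Retnla was at a ratio of 1.23, and 3 of 9 measured members were higher (Chil3, Ear2 and Mrc1), against 4.13% of genes. By class, 6 of the 9 measured members lay past either limit in cycling macrophages, where 20.3% of all genes did. In monocytes 0 of 6 measured members did, against 20.8% of all genes.

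Arg1, the arginase gene, was the enzyme gene found in most macrophages. Its level in monocytes and macrophages was 2581 CPM for control and 2538 for sitagliptin, a ratio of 0.983 (95% counting interval 0.973 to 0.993). With each cell thinned to 2000 UMIs, an Arg1 UMI was found in 77.0% and 76.5% of cells, and 3 or more UMIs in 50.8% and 51.1%. Without thinning the shares were 83.7% and 82.9%. Scaled by the median ratio over genes in place of the class total, the Arg1 ratio was 1.05, so its side of 1 depends on the scaling.

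Arg1 differed more between programs than between diets. Inflammatory macrophages, with Cxcl3, Inhba and Il1a, had 4219 and 4256 CPM, and lipid-associated macrophages, with Gpnmb and Fabp4, had 4071 and 4233. At the other end, monocytes had 949 and 760 CPM, a ratio of 0.801 (0.743 to 0.864). The highest program was thus 4.45 times the lowest for control and 5.60 times for sitagliptin. Resident-like macrophages, with Fcrls and Cbr2, had 3091 and 2906, a ratio of 0.940 (0.908 to 0.974), and cycling macrophages had 1906 and 2027, a ratio of 1.06 (1.03 to 1.09). Over the 9 phagocyte classes the ratio lay above 1 beyond counting error in 2, below 1 in 2, and had an interval including 1 in 5. The lower value in monocytes rested on few cells. The 10 monocytes with the most Arg1 UMIs held 42.9% of the control and 29.2% of the sitagliptin UMIs, and without them, left out after the data were seen, the levels were 575 and 560 CPM, a ratio of 0.974 (0.885 to 1.07). The share of thinned monocytes with an Arg1 UMI was 31.8% and 34.2%, and with a stricter marker threshold the ratio was 1.002.

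Nos2, the gene for inducible nitric oxide synthase, had 111.6 CPM for control and 105.0 for sitagliptin, a ratio of 0.941 (0.896 to 0.988). Under the median-ratio scaling it was 1.003. An Nos2 UMI was found in 13.5% of thinned control cells and 11.9% of thinned sitagliptin cells. Its levels by program went both ways. Inflammatory macrophages had 251 and 178 CPM (ratio 0.707, 0.629 to 0.795). Interferon-responding macrophages, with Ifit1 and Rsad2, had 215 and 309, a ratio of 1.44 (1.248 to 1.65). Which program stood highest thus differed between the libraries, inflammatory in the control and interferon-responding in the sitagliptin library, although in the control library the intervals of these 2 programs overlapped. Resident-like macrophages were lowest, with 33.3 and 12.8 CPM from 49 UMIs in each library, a ratio of 0.383 (0.252 to 0.581). In the other 6 phagocyte classes the interval of the ratio included 1.

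Slc7a2, the arginine transporter gene, had 243 and 277 CPM over all monocytes and macrophages, a ratio of 1.14 (1.11 to 1.18). Like Arg1 it was high in inflammatory macrophages, at 386 and 399, and in lipid-associated macrophages, at 356 and 476 (ratio 1.34, 1.23 to 1.46). It was lowest in monocytes, at 114 and 139. The sitagliptin library was higher beyond counting error in 5 of 9 classes and lower in 0.

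Il4ra, the receptor chain shared by IL-4 and IL-13, had the flattest profile of the members. Over all monocytes and macrophages it had 75.3 CPM for control and 66.2 for sitagliptin, a ratio of 0.879 (0.828 to 0.934). Monocytes were highest at 99.7 and 95.7 and cycling macrophages lowest at 56.5 and 50.6, so the highest class was 1.76 and 1.89 times the lowest. The ratio was below 1 beyond counting error in 3 of 9 classes and had an interval including 1 in 6. A UMI was found in 14.2% and 13.4% of thinned cells, against 28.5% and 29.8% without thinning, so the unthinned share went the other way from the level and no order was read from it.

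Retnla, the gene for RELM-alpha, was held by few cells. It had 81.9 CPM for control and 108 for sitagliptin, a ratio of 1.32 (1.252 to 1.39). A UMI was found in 189 of 4690 control cells (4.03%, 3.49 to 4.63) and 364 of 5854 sitagliptin cells (6.22%, 5.61 to 6.87) after thinning, and in 5.10% and 8.17% without it. The 10 cells with the most Retnla UMIs held 44.3% of all its control UMIs and 33.1% of all its sitagliptin UMIs. Cells with 1 or 2 thinned UMIs were 2.88% and 4.75%, and cells with 3 or more were 1.15% (0.866 to 1.50) and 1.47% (1.18 to 1.81), so the intervals separated for the low counts and overlapped for the high ones. In T cells, which should lack the gene and had median depths of 3430.5 and 3509 UMIs, a thinned Retnla UMI was found in 0 of 178 and 0 of 321 cells, which allows shares of up to 1.69% and 0.935%. Without the 10 highest cells of each library, left out after the data were seen, the ratio was 1.59.

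Macrophages high in MHC class II had Retnla at 149.8 and 204.5 CPM, a ratio of 1.37 (1.254 to 1.49), resting on 3.63% and 4.86% of their thinned cells. Resident-like macrophages had 112 and 185 CPM (1.64, 1.39 to 1.96). Both classes were thus higher in the sitagliptin library. In the classes with the highest Retnla ratios, 1 cell held most of the UMIs. Lipid-associated macrophages had 2.75 and 63.0 CPM (ratio 22.9, 10.9 to 57.9), but 1 sitagliptin cell held 141 of their 178 UMIs, and the ratio without the highest cell of each library was 6.70. Inflammatory macrophages had 10 and 112 UMIs, of which 1 sitagliptin cell held 74. In interferon-responding macrophages 1 control cell held 101 of 112 UMIs, and the ratio turned from 0.276 (0.193 to 0.390) to 1.55 (0.744 to 3.46) without the highest cell of each library. Macrophages with Cxcl9 and Vcam1 had 246 and 35.9 CPM, a ratio of 0.146 (0.101 to 0.206), from 7.48% of 107 and 4.26% of 141 thinned cells, and 0.0829 without the highest cell of each library. In macrophages without a called program the share of thinned cells with a UMI was 4.38% and 8.52%, against levels of 59.7 and 70.6 CPM.

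Chil3, the gene for Ym1, had its highest level in monocytes, which held 34.7% of its control and 39.2% of its sitagliptin UMIs. Monocytes had 763 CPM for control and 824 for sitagliptin, a ratio of 1.08 (0.998 to 1.17), and a UMI was found in 48.2% and 51.8% of thinned monocytes. Over all monocytes and macrophages the level was 99.1 and 147, a ratio of 1.48 (1.42 to 1.56). Monocytes were also a larger share of this class in the sitagliptin library (7.16% and 10.8%), and with the same mix of programs in both libraries the ratio was 1.29. Lipid-associated macrophages had 47.5 and 128 CPM (2.69, 2.18 to 3.33) and inflammatory macrophages 121 and 207 (1.71, 1.49 to 1.97). Interferon-responding macrophages had 127 and 153 CPM. Macrophages without a called program had 71.8 and 102.5, and those high in MHC class II 78.2 and 86.5. Resident-like, cycling and Cxcl9 and Vcam1 macrophages were lowest, with between 24.5 and 52.1 CPM in both libraries.

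Ear2 was rare, with 12.9 CPM for control and 20.5 for sitagliptin, a ratio of 1.59 (1.39 to 1.82). Thinned cells with a UMI were 1.94% and 2.48%, and with each cell thinned the ratio of levels was 1.252. Macrophages high in MHC class II had 27.5 and 56.0 CPM (2.04, 1.69 to 2.47) and cycling macrophages 8.14 and 19.5 (2.40, 1.64 to 3.58). In interferon-responding macrophages the order was the reverse, with 24 and 11 UMIs, and in macrophages with Cxcl9 and Vcam1, with 27 and 9. Of 834 and 673 thinned cycling macrophages, Ear2 was found with Retnla in 3 and 6 cells and without it in 13 and 6. The share of cycling macrophages with an Ear2 UMI thus did not rise with the level. Close relatives of the secreted members could share reads with them, and the sources used here do not say how the authors' counting treated such reads. Ear1 and Ear10 had 0 and 1 UMI each, Ear6 had 0 and 0, Chil4 and Retnlb had 0 and 1 each, and Retnlg had 7 and 8.

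Mrc1, the mannose receptor gene, was higher in the sitagliptin library at 707 CPM than in the control library at 574, a ratio of 1.23 (1.21 to 1.26). A UMI was found in 44.5% and 51.6% of thinned cells and 3 or more UMIs in 11.7% (10.8 to 12.6) and 15.9% (14.9 to 16.8). Resident-like macrophages were highest, with 1586 and 1893 CPM (1.19, 1.14 to 1.251), and monocytes lowest, with 97.1 and 103. Resident-like macrophages were 4.14% of control and 7.35% of sitagliptin cells, and with the same mix of programs the ratio over all classes was 1.16. Within programs, cycling macrophages had the highest of the 9 ratios, at 502 and 722 CPM (1.44, 1.37 to 1.51). In inflammatory macrophages, at 496 and 485.5, and lipid-associated macrophages, at 718 and 710, the intervals of the ratio included 1.

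Folr2 went the other way from Mrc1 although both were highest in resident-like macrophages. Its level there was 158 CPM for control and 119 for sitagliptin, a ratio of 0.756 (0.644 to 0.889). The share of resident-like cells with a Folr2 UMI was 27.3% and 17.2% after thinning and 55.2% and 47.0% without it. Over all monocytes and macrophages Folr2 had 32.8 and 27.1 CPM (0.826, 0.752 to 0.907), and 0.720 with the same mix of programs. It was lower beyond counting error in 5 of 9 classes and higher in 0. Cd163, the haemoglobin receptor gene, had 27 and 73 UMIs in all, of which 10 and 52 lay in resident-like macrophages. Its ratio of 1.84 (1.17 to 2.98) became 0.990 with each cell thinned to 2000 UMIs, so no direction was read for it.

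**Figure D2:**
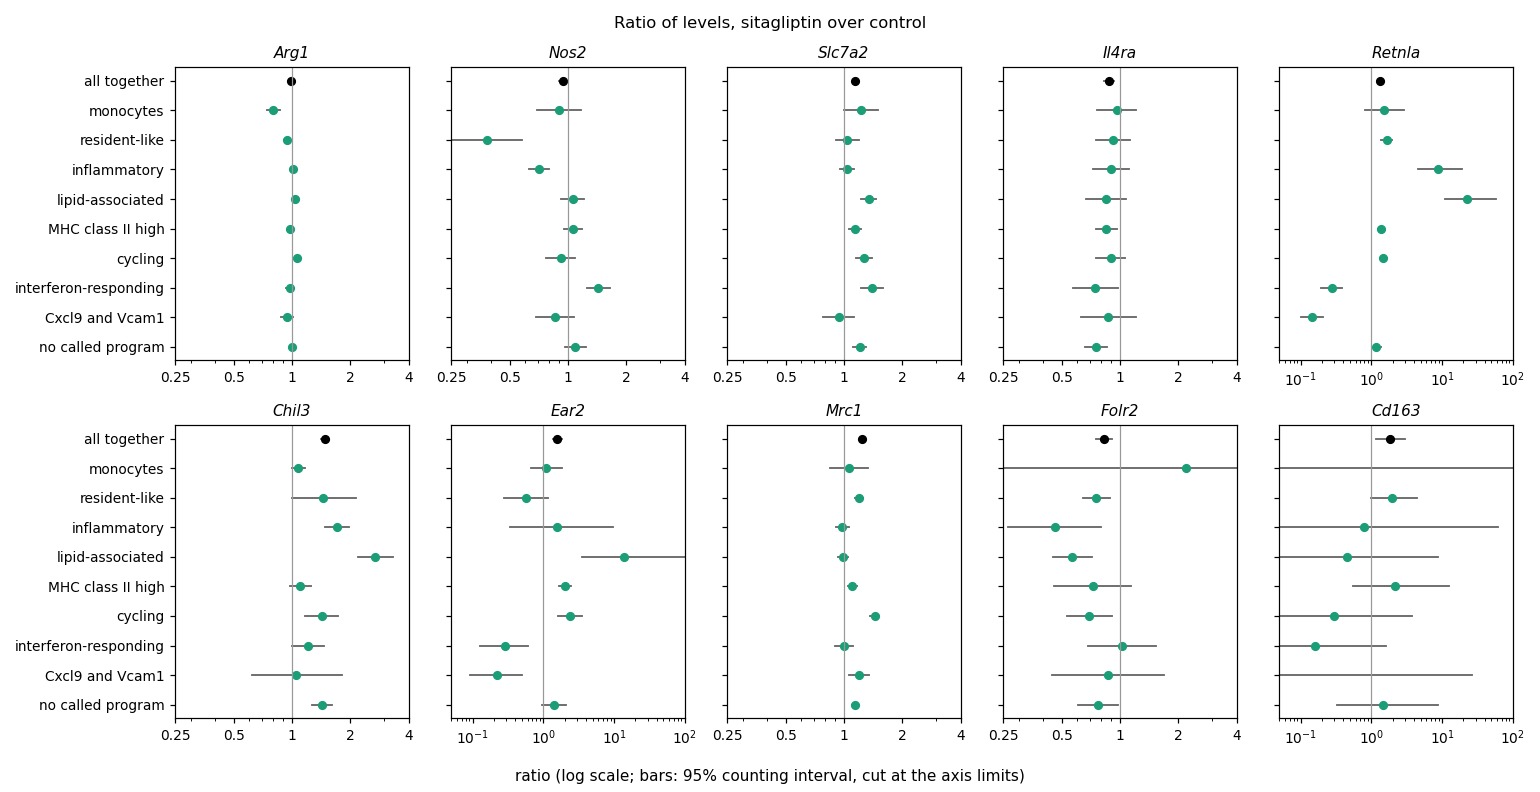
Ratio of the level in the sitagliptin library over that in the control library for each member, over all monocytes and macrophages (black) and in each phagocyte class (green), on a horizontal log axis whose range is wider for Retnla, Ear2 and Cd163. Bars are 95% counting intervals, cut at the axis limits, and a missing point is a class with 0 UMIs in 1 library. Arg1 points lay between 0.801 and 1.06, Mrc1 points between 0.978 and 1.44, and Retnla points between 0.146 and 22.9.

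Dendritic cells held little of the arginine genes. Mature dendritic cells, with Ccr7 and Fscn1, were 56 and 62 cells and had 4 and 17 Arg1 UMIs, or 15.8 and 46.7 CPM, a ratio of 2.95 (0.961 to 12.0). Cells of cDC2 type, with Cd209a, were 28 and 34 cells with Arg1 at 56.9 and 69.7 CPM, and cDC1 were 11 and 24 cells with 1 and 10 Arg1 UMIs. T cells, which should lack the gene, had 37.1 and 35.0 CPM. Their barcodes had to hold fewer than 5 phagocyte marker UMIs per 10000. For dendritic cells the limit was 20, so T cells and dendritic cells were not filtered alike for macrophage RNA. The ratio to T cells of the same library had an interval including 1 in each subset except the sitagliptin cDC2-like cells, which had 15 Arg1 UMIs (1.99, 1.04 to 3.59). An Arg1 UMI was found in 5.06% and 6.85% of thinned T cells, at median depths of 3430.5 and 3509 UMIs. The shares were 3.57% and 3.23% of mature dendritic cells and 3.57% and 8.82% of cDC2-like cells. Whether the Arg1 UMIs of mature dendritic cells are background was not tested. The sitagliptin cDC2-like share had an interval of 1.86% to 23.7%, which holds the T cell share. Nos2 had 0 and 1 UMI in T cells, 0 and 0 in cDC1, 1 and 1 in cDC2-like cells and 0 and 5 in mature dendritic cells.

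Ear2 and Il4ra stood above the T cell level in cDC2-like cells of both libraries. Ear2 had 85.4 CPM for control and 372 for sitagliptin there, from 12 and 80 UMIs, with a UMI in 10.7% and 23.5% of thinned cells. Its level in T cells came from 5 and 0 UMIs. Il4ra had 142 and 121 CPM in cDC2-like cells against 52.5 and 50.5 in T cells, ratios of 2.71 (1.504 to 4.73) and 2.39 (1.47 to 3.79). Retnla had 31 UMIs in the control cDC2-like cells, all in 2 cells, and 0 in the sitagliptin cells, which allows up to 13.9 CPM. Mrc1 had 199 and 325 CPM in the same cells and 19.8 and 22.0 in mature dendritic cells. With 28 and 34 cells these values describe few cells.

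Whether Arg1, Nos2, Retnla and Mrc1 were found in the same cells was read from thinned cells, as the share with a UMI of the second gene among cells with and without the first. Arg1 and Nos2, the opposed arginine enzymes, shared cells more often than unrelated genes would: 544 control and 594 sitagliptin cells had both, where 487 and 535 would be expected from their shares. Of the cells with Arg1, 15.1% (13.9 to 16.3) of control and 13.3% (12.3 to 14.3) of sitagliptin cells also had Nos2, against 8.25% (6.68 to 10.1) and 7.64% (6.29 to 9.18) of cells without Arg1. The odds ratio was 1.97 (1.55 to 2.53) and 1.85 (1.48 to 2.32). Combined within programs by the Mantel-Haenszel formula it was 1.88 and 1.73, values given without an interval. Each single program also had a value above 1, but in most the interval included 1. Only monocytes, the class lowest in Arg1, had intervals above 1 in both libraries, at 5.32 (2.29 to 13.2) and 2.79 (1.39 to 5.71). Over the class as a whole, both libraries showed the same sign and similar size for this pair.

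Arg1 and Mrc1 also shared cells. Mrc1 was found in 49.0% of control cells with Arg1 and 29.5% of those without it, and in 57.8% and 31.4% of sitagliptin cells. The odds ratios were 2.30 (1.98 to 2.67) and 2.98 (2.62 to 3.40), and 1.86 and 2.14 within programs. Cells with Arg1 and Mrc1 but neither Nos2 nor Retnla were 31.8% (30.5 to 33.2) of control and 36.9% (35.6 to 38.1) of sitagliptin cells, the most frequent combination in both. Cells with Arg1 alone were 31.3% (30.0 to 32.6) and 25.4% (24.2 to 26.5). The 2 combinations were thus equally frequent within counting error in the control library, and Arg1 with Mrc1 was ahead in the sitagliptin library. None of the 4 genes was found in 14.2% and 14.4%.

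Nos2 and Mrc1 shared fewer cells than unrelated genes would, 240 and 292 against 282 and 361 expected. In the control library 37.9% of cells with Nos2 had Mrc1, against 45.5% of cells without Nos2, an odds ratio of 0.731 (0.612 to 0.871). In the sitagliptin library the shares were 41.8% and 52.9%, an odds ratio of 0.638 (0.542 to 0.751). At 2 or more UMIs of each gene the odds ratios were 0.432 and 0.501, and without thinning 0.974 and 0.879, with intervals that included 1.

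Retnla and Arg1 kept apart most clearly in cells with several UMIs of each. In the control library 3.43% (2.86 to 4.08) of cells with Arg1 had a Retnla UMI, against 6.02% (4.68 to 7.61) of cells without Arg1, an odds ratio of 0.555 (0.404 to 0.767). In the sitagliptin library the shares were 6.09% (5.41 to 6.83) and 6.62% (5.37 to 8.07), an odds ratio of 0.915 (0.713 to 1.18). The 2 intervals overlapped, and the difference between the libraries was not tested. At 2 or more UMIs of each gene the odds ratios were 0.163 (0.0850 to 0.296) and 0.315 (0.212 to 0.464), both below 1, and within programs they were 0.517 and 0.661. Within resident-like macrophages they were 0.161 (0.0399 to 0.569) and 0.274 (0.136 to 0.557), and within macrophages high in MHC class II 0.227 (0.0911 to 0.516) and 0.409 (0.212 to 0.771). Monocytes, which are low in both genes, had 8 and 10 cells with both, and odds ratios of 18.3 and 3.98.

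Of the remaining pairs among the 4 genes, Retnla and Mrc1 shared cells over the class as a whole, and Nos2 and Retnla had few cells in common. Mrc1 was found in 53.4% of control cells with Retnla and 44.1% of those without it (odds ratio 1.45, 1.07 to 1.97), and in 69.0% and 50.5% of sitagliptin cells (2.18, 1.73 to 2.77). Combined within programs the odds ratios of Retnla and Mrc1 were 1.30 and 1.70. Programs differed: macrophages high in MHC class II had 6.26 (2.59 to 17.3) and 2.49 (1.31 to 4.88), while control cycling macrophages had 0.519 (0.273 to 0.954), with 18 cells holding both where 26.0 would be expected, and sitagliptin cycling macrophages 1.77 (0.913 to 3.61). Nos2 and Retnla were found together in 17 control and 33 sitagliptin cells, with odds ratios of 0.623 (0.352 to 1.04) and 0.722 (0.484 to 1.05), whose intervals include 1. All 4 genes were found in 4 of 4690 control cells and 19 of 5854 sitagliptin cells. Thus joint presence of all 4 was rare in both libraries, at 0.0853% (0.0232 to 0.218) and 0.325% (0.196 to 0.506). Retnla alone was found in only 4.03% and 6.22% of these cells. No count expected for unrelated genes was worked out, so the rarity does not show that the 4 genes avoid each other.

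**Figure D3:**
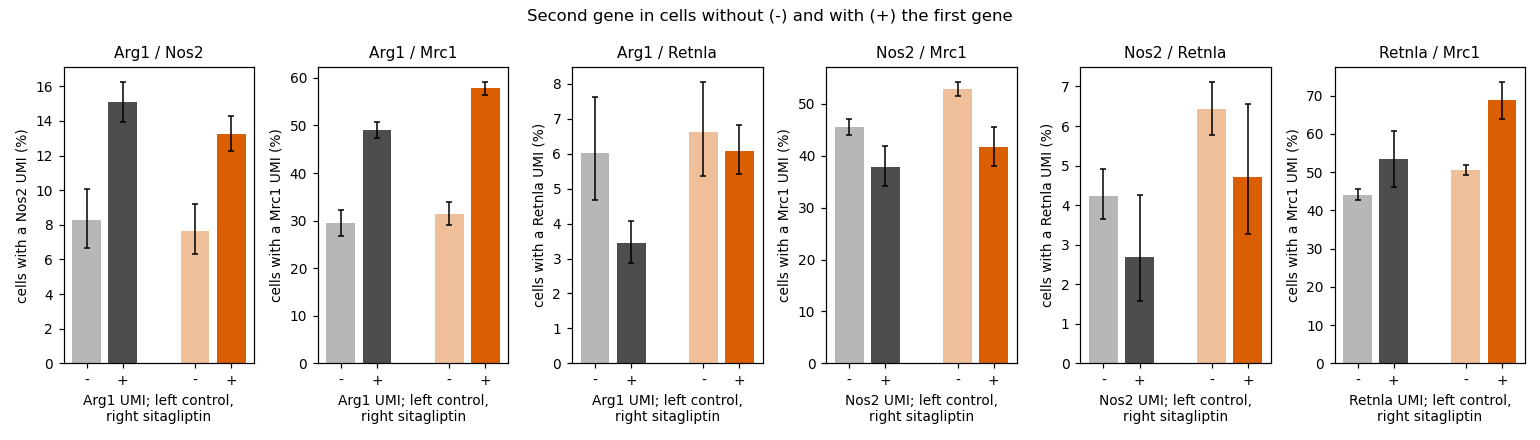
Share of thinned monocytes and macrophages with a UMI of the second gene, in percent from 0, among cells without (−, pale) and with (+, dark) a UMI of the first, 1 panel per pair, for the control (grey) and sitagliptin (orange) libraries. Bars carry exact 95% binomial intervals. For Arg1 and Nos2 the share was higher with Arg1 in both libraries (15.1% against 8.25%, and 13.3% against 7.64%), and for Nos2 and Mrc1 lower with Nos2 in both.

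Outside these pairs, Slc7a2 was found more often with both enzymes, Retnla more often with Ear2, and Arg1 less often with Chil3. Slc7a2 was found with Nos2 at odds ratios of 2.08 (1.75 to 2.48) and 2.02 (1.72 to 2.38), and with Arg1 at 2.58 (2.15 to 3.10) and 2.90 (2.47 to 3.41). Retnla and Ear2 were found together in 28 control and 43 sitagliptin cells, at odds ratios of 12.2 (7.34 to 19.99) and 7.07 (4.75 to 10.4). Within programs they were 11.9 and 7.79. Arg1 and Chil3 shared fewer cells, at 0.391 (0.324 to 0.474) and 0.393 (0.338 to 0.457), and within programs at 0.640 and 0.656. Retnla and Chil3 were at 0.455 (0.222 to 0.842) and 0.657 (0.461 to 0.917) over the whole class and at 0.537 and 0.854 within programs. In each single program the interval of this pair included 1, except in control monocytes, where 1 cell held both. Mrc1 and Folr2 shared cells at 3.57 (2.60 to 4.97) and 4.06 (2.91 to 5.79), and within programs at 2.19 and 2.38.

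Cells with at least 3 thinned Retnla UMIs, a limit chosen after the data were seen, were 54 control and 86 sitagliptin cells and held 80.6% and 73.0% of the thinned Retnla UMIs. They were set against the other cells of the class. Their Ear2 level was 444 and 320 CPM, against 9.38 and 13.5 in the rest. Lyz1, a lysozyme gene and close relative of the macrophage gene Lyz2, was at 361 and 355 against 5.93 and 5.98. Mrc1 was also higher in them, at 1000.0 and 924 against 460 and 589, and so was Folr2, at 102 and 116 against 24.6 and 20.9. Lower were Arg1, at 454 and 651 against 2172 and 2108, Slc7a2, at 102 and 116 against 213 and 250, and Chil3, at 4 and 2 UMIs in these cells. Nos2 had 3 and 2 UMIs in them. The same order held in both libraries for each of these genes.

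The marker lists of these cells were mixed. Markers of macrophages high in MHC class II summed to 20185 and 15331 CPM, against 12681 and 10538 in the rest, and resident-like markers to 1056 and 1477 against 437 and 449. Lipid-associated markers were at 750.0 and 785 against 3705 and 2878. Markers of cDC2-like cells were also higher, at 463 and 459 against 130 and 154, while phagocyte markers were at 7537 and 7942 against 10507 and 9284. Eosinophil markers summed to 0 and 5.81 CPM against 0.216 and 0.52, levels that rest on few UMIs. The part of cDC2-like cells or eosinophils in the Retnla and Ear2 values was not tested. The cells came mostly from macrophages high in MHC class II (20 and 27 cells), resident-like macrophages (7 and 22) and macrophages without a called program (14 and 15), and their median depth was 5336.5 and 7275.5 UMIs against 3892.5 and 4548.5.

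Cells high in the other genes had other partners. The 649 control and 762 sitagliptin cells with at least 10 thinned Arg1 UMIs had Mrc1 at 866 and 970 CPM against 402 and 538 in the rest, and Nos2 at 166 and 167 CPM against 97.1 and 89.9. Their Retnla level was 1.54 and 11.2, against 93.5 and 112. The 189 and 229 cells with at least 2 Nos2 UMIs had Arg1 at 3294 and 3120 CPM against 2105 and 2045, and Slc7a2 at 553 and 517 CPM against 198 and 237. Their Mrc1 level was lower, at 272 and 349 against 474 and 604. The 137 and 255 cells with at least 3 Chil3 UMIs, of which 80 and 157 were monocytes, had Arg1 at 1307 and 1922 CPM against 2178 and 2094. High Arg1 thus went with high Mrc1 and with more Nos2, while high Nos2 went with less Mrc1, in both libraries. The median depth of the high Arg1 cells was 6397 and 8004.5 UMIs against 3522 and 4177.5 in the rest. For the high Nos2 cells it was 5072 and 6148 against 3819 and 4515. Inflammatory macrophages were 148 and 168 of the high Arg1 cells and 51 and 36 of the high Nos2 cells. The part of depth and program in these values was not tested.

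**Figure D4:**
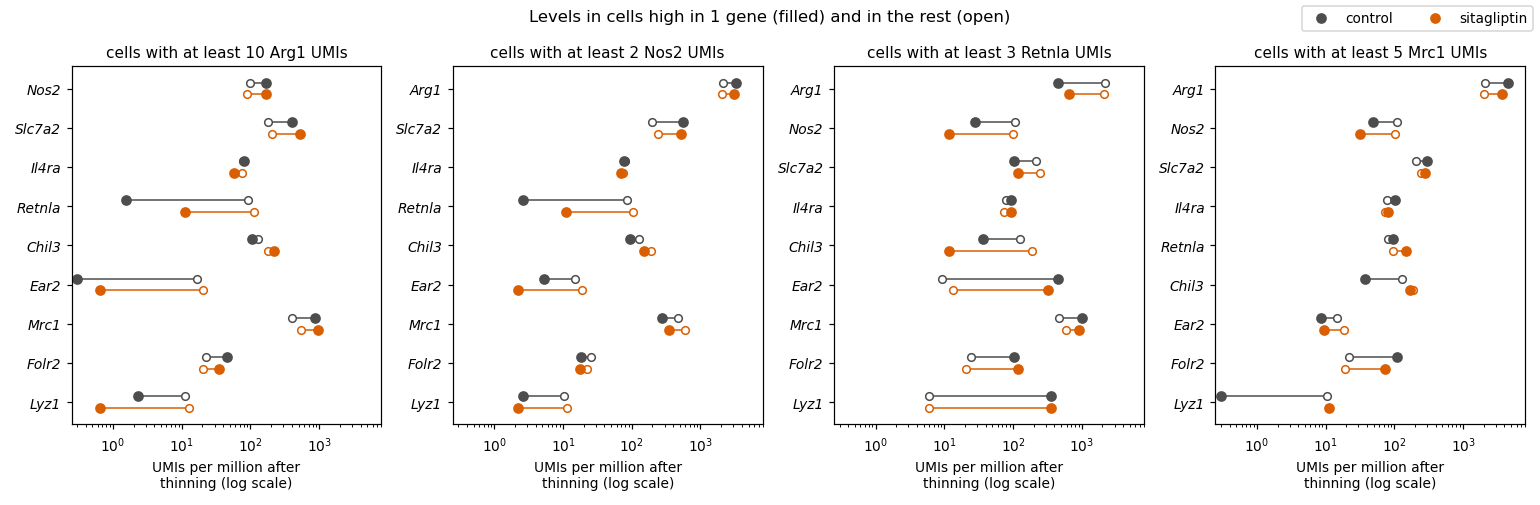
Level of the other members and Lyz1 in CPM after thinning (horizontal log axis, values under 0.3 drawn at 0.3) in cells high in Arg1, Nos2, Retnla or Mrc1 (filled) and in the other monocytes and macrophages (open), for the control (grey) and sitagliptin (orange) libraries. In cells with at least 3 Retnla UMIs, Ear2 and Lyz1 stood far to the right of the rest (444 against 9.38 for Ear2 in the control library) and Arg1 to the left (454 against 2172).

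Genes around the members were read from lists set by role, in monocytes and macrophages together, past the same limits and counting as measured those with at least 100 UMIs over both libraries. The counts are set against the 4.24% higher and 13.2% lower over all genes. Of 17 measured genes of arginine uptake, the urea cycle and nitric oxide synthesis, 1 was higher and 4 were lower in the sitagliptin library, with a median log2 ratio of −0.19 against −0.09 over all genes. Ass1, which rebuilds arginine from the citrulline that nitric oxide synthase releases, had 446 and 336 CPM (0.754, 0.735 to 0.774). The mitochondrial arginase Arg2 had 32.9 and 24.9 (0.758, 0.689 to 0.834), the transporter gene Slc7a6 19.3 and 14.2 (0.733, 0.647 to 0.832), and Ddah2 14.05 and 10.5 (0.745, 0.643 to 0.863). Ddah1, which like Ddah2 breaks down a natural inhibitor of nitric oxide synthase, was higher, at 10.7 and 17.2 (1.61, 1.40 to 1.87). Under the median-ratio scaling 2 genes of this list were higher and 2 lower.

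Downstream of arginase, 0 of 16 measured genes of ornithine, polyamine, proline and creatine metabolism were higher and 2 lower, shares near those over all genes, with a median of −0.08. Odc1, the first enzyme of polyamine synthesis, had 176 and 165 CPM (0.938, 0.902 to 0.975). Lower were the spermidine synthase gene Srm, at 38.2 and 28.1 (0.736, 0.674 to 0.804), and Gamt, the last enzyme of creatine synthesis, at 23.6 and 18.2 (0.771, 0.689 to 0.863). Azin1, an inhibitor of antizyme, had the highest ratio of the list, at 168 and 203 CPM (1.21, 1.17 to 1.26). The other 14 measured genes of this list lay within the limits.

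In the IL-4 and IL-13 signalling list, 1 of 13 measured genes was higher and 1 lower, against 4.24% and 13.2% of all genes, with a median of −0.02, so the list is not set apart by its counts. Irf4, a transcription factor of alternative activation, had 6.81 and 10.7 CPM (1.57, 1.31 to 1.89), and Socs1, a brake on JAK signalling, 55.4 and 43.6 (0.788, 0.733 to 0.847). Stat6 had 55.1 and 51.8 (0.940, 0.876 to 1.01). The cytokine genes were near absent from these cells, with 2 and 5 UMIs of Il4 and 9 and 0 of Il13. Among 15 measured other genes of alternative activation, 3 were higher and 0 lower, against 4.24% and 13.2% of all genes, with a median of 0.03. These were the lectin gene Mgl2, at 92.3 and 123 (1.33, 1.27 to 1.40), and the chemokine genes Ccl17, at 24.0 and 35.4 (1.48, 1.34 to 1.63), and Ccl24, at 57.9 and 75.0 (1.30, 1.22 to 1.38). Ccl17 and Mgl2 were also leading genes of cDC2-like cells. Ccl17 was a leading gene of mature dendritic cells and of macrophages high in MHC class II as well. The part of dendritic cells in these ratios was not tested. Of 17 measured inducers and partners of classical activation, 0 were higher and 1 lower, with a median of −0.03.

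Resident macrophage genes had 6 of 12 measured genes higher and 0 lower, against 4.24% and 13.2% of all genes, with a median of 0.33. Among them Lyve1, a hyaluronan receptor gene, had 2.19 and 5.67 CPM (2.59, 1.92 to 3.55), Fcrls 37.3 and 69.9 (1.87, 1.74 to 2.02) and Cbr2 17.9 and 30.0 (1.67, 1.50 to 1.87). The other 6 lay within the limits. Of these, Ccl8 had 342 and 316 CPM, a ratio below 1 (0.923, 0.897 to 0.949). The intervals of Mertk (0.954, 0.889 to 1.02) and Stab1 (1.05, 0.994 to 1.11) included 1. Several genes of this list are the markers that called the resident-like class, whose share was 4.14% and 7.35%. Of the relatives of the members, 2 of 13 were measured. Lyz1, which shared cells with Retnla, had 9.67 and 15.6 (1.61, 1.38 to 1.88), and Slc7a1, another arginine transporter gene of the Slc7a2 family, 45.0 and 39.4 (0.875, 0.809 to 0.946).

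The genes whose levels followed the members most closely were found by Pearson correlation of log2(CPM + 10) over 20 points, 10 cell classes in 2 libraries, which share libraries and hold mature dendritic cells as a low end. For Arg1 these were Abca1 (r = 0.994), Pde8a (0.986) and Arhgap24 (0.981). Over the 9 phagocyte classes alone, 18 points, Abca1 was again first at 0.962. For Mrc1 they were Dab2 (0.981), Ms4a7 (0.972) and Pdia4 (0.971), and for Nos2 Il1rn (0.898), Asph (0.891) and Fmnl2 (0.876). Retnla had weaker partners, Ccdc134 (0.773), Slc35a4 (0.766) and Lyz1 (0.758). Without mature dendritic cells the first genes changed for the other 3: Snx6 (0.981) for Mrc1, Fmnl2 (0.901) for Nos2 and Maco1 (0.841) for Retnla, and none of the first 3 genes of Mrc1 or Retnla over 20 points was among their first 3 over 18. Among the members, Arg1 was closest over 20 points to Mrc1 (0.890) and Slc7a2 (0.886), and Retnla to Ear2 (0.695).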

How the data were processed

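For each of the 2 libraries the authors deposited UMI counts by gene and barcode, not normalized, with gene symbols. The sources used here do not give the aligner, counting program, genome build or annotation. Barcodes began at 2001 UMIs in both. The members and gene lists were chosen with earlier results of these data known. Counts were read in Python 3.11.15 with scanpy 1.11.5, anndata 0.12.19, numpy 2.4.6, scipy 1.17.1 and pandas 2.3.3. Genes sharing a symbol were summed. The automatic threshold of Scrublet marked 0 barcodes, so the top 6% by score were taken out of each library, leaving 8172 and 9180.

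Monocytes and macrophages needed 20 phagocyte marker UMIs per 10000, 3 such markers detected, and no markers of another class beyond set limits. Each cell joined the program whose marker list had the highest mean z-score, from 0.5 upwards and with 3 markers detected. Dendritic cell subsets lay below the phagocyte limit of 20 and needed at least 3 of their own markers. T cells needed at least 4 of theirs and fewer than 5 phagocyte marker UMIs per 10000, a stricter limit. No member served as a marker. For each class of a library, UMIs were added up and divided by the class total. With 1 library per diet there was no test: levels carry exact Poisson, ratios exact conditional binomial and shares exact Clopper-Pearson 95% intervals. These cover counting error only. For co-detection each cell was thinned to 2000 UMIs. On simulated Poisson counts 95.3% of ratio intervals covered the true value over monocytes and macrophages. The intervals assume such counts, so this coverage does not extend to genes whose UMIs gather in few cells. Named genes were all members, of each list at most the 3 highest and 3 lowest measured genes and those the counts turn on, and the 3 genes most like Arg1, Nos2, Retnla and Mrc1 in level. Motifs were chosen after the promoter letters were known. Alternatives covered doublets, mixed barcodes, scaling, program mix, thinning, thresholds and limits on UMIs. The gene of the classical activation list that was lower is not reported here.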

Additional observations from a re-analysis of the deposited data

Results flagged for a closer look

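For 4 members the ratio of sitagliptin to control lay above 1 beyond counting error in one class and below 1 in another. The difference between classes was not tested. Arg1 had a ratio of 1.06 in cycling macrophages and 0.801 in monocytes, where 10 cells held 42.9% of the control UMIs and the ratio without the 10 highest cells of each library was 0.974 (0.885 to 1.07). Nos2 had 1.44 in interferon-responding macrophages and 0.383 in resident-like macrophages, the latter from 49 UMIs in each library. Retnla had 22.9 in lipid-associated macrophages, where 1 sitagliptin cell held 141 of 178 UMIs, and 0.146 in macrophages with Cxcl9 and Vcam1. Ear2 had 13.98 in lipid-associated macrophages, where 1 sitagliptin cell held 24 of 31 UMIs and the control library had 2, and 0.225 in macrophages with Cxcl9 and Vcam1, from 27 and 9 UMIs.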

How the results depend on the processing

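No paired analysis was possible because each diet had 1 library. Over monocytes and macrophages together, median-ratio scaling turned Arg1 (1.05) and Nos2 (1.003), and moved Retnla to 1.41, Chil3 to 1.58, Mrc1 to 1.31, Slc7a2 to 1.22 and Il4ra to 0.938. Thinning turned Cd163 (0.990) and moved Arg1 to 0.969, Ear2 to 1.252, Mrc1 to 1.27 and Retnla to 1.23. The same mix of programs moved Arg1 to 0.998, Chil3 to 1.29, Folr2 to 0.720, Mrc1 to 1.16 and Slc7a2 to 1.18. Arg1 was 0.998 with mixed barcodes kept, where Retnla was 1.43, and 0.994 with doublet calls kept. Chosen after seeing the data, barcodes of at least 5000 UMIs gave Arg1 0.965, Cd163 6.13, Ear2 1.85, Mrc1 1.18, Retnla 1.21 and Slc7a2 1.11, and leaving out the 10 highest cells gave Retnla 1.59 and Chil3 1.58. In single programs, a stricter threshold turned Arg1 in monocytes (1.002) and Retnla in interferon-responding macrophages (1.18), a looser one Chil3 (0.867) and Retnla (0.845) in macrophages without a called program, and leaving out the highest cell turned Retnla in interferon-responding macrophages (1.55). Ratios of shares at 2 UMIs or more were 0.653 for Folr2, 0.813 for Il4ra, 1.30 for Mrc1 and 1.23 for Slc7a2, and for Il4ra 1.04 without thinning.

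Odds ratios, control then sitagliptin where both moved, were 3.56 and 5.26 for Arg1 with Mrc1, 3.25 and 2.32 for Arg1 with Nos2, and 0.974 and 0.879 for Nos2 with Mrc1 without thinning. Within programs they were 1.86 and 2.14 for Arg1 with Mrc1, 0.661 for Arg1 with Retnla and 1.70 for Retnla with Mrc1 (both sitagliptin). At 2 UMIs or more they were 0.163 and 0.315 for Arg1 with Retnla, 0.432 and 0.501 for Nos2 with Mrc1, 2.35 for Arg1 with Mrc1 and 0.200 for Nos2 with Retnla (both sitagliptin), and 3.02 for Retnla with Mrc1 (control). Median-ratio scaling changed list counts: arginine and nitric oxide genes to 2 higher and 2 lower, ornithine genes to 1 and 1, IL-4 and IL-13 genes to 0 lower, and classical activation genes to 0 lower. With members of at least 20 UMIs, 2 classical activation genes and 1 relative of the members were lower. The cause was not tested in any of these. In single programs 33 further values moved beyond the counting interval, 17 of them by more than 1.5 times, while 307 stayed within it. The widest were Retnla in inflammatory (1.92 to 40.9) and lipid-associated macrophages (6.70 to 65.7) and Chil3 in resident-like macrophages (0.903 to 6.16). A stricter threshold also gave Nos2 1.85 and Mrc1 0.626 in monocytes, and Ear2 1.30 in resident-like macrophages. Outside single programs, the other alternatives kept their direction and stayed within the counting interval, 52 for levels, 15 for shares and 30 for pairs, and 20 list counts stayed within 1.5 times.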
